A study of Homo sapiens with 2 samples.

Results

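The genes EEF1A1, EEF1B2, EEF1D, EEF1G, EEF2, TPT1, PABPC1, RACK1, NPM1 and NAP1L1, which encode translation elongation factors or have TOP mRNAs, were followed through RNA bisulfite sequencing (RNA BS-Seq) of 2 human breast cell lines. The 10 genes were chosen by name, with earlier results of these data known. Their sites are the cytosines with a coverage of at least 10 reads on same-strand exons of the basic transcript set of GENCODE release 44, lifted to GRCh37. MCF10A had 2941 such sites among 1584002 and MDA-MB-468 had 2878 among 1271253. Of the sites of the 10 genes, 2505 were covered in both. MCF10A is a normal-like mammary epithelial line and MDA-MB-468 a breast cancer line, both from ATCC, and the labels name no treatment of either. Each line has 1 library of poly(A)-selected RNA treated with bisulfite at 60 degrees for 8 hours, and no replicate, so that a difference below is one between 2 libraries and not between the cell lines. Intervals of a share or ratio are 95% Wilson intervals, and those of a difference are Newcombe intervals. They cover counting error only, and reads copied by PCR are not independent molecules.

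During elongation, eEF1A (EEF1A1) brings the aminoacyl-tRNA to the ribosome, the eEF1B complex (EEF1B2, EEF1D and EEF1G) reloads eEF1A with GTP, and eEF2 (EEF2) moves the ribosome along the message. The mRNAs of these factors, like those of the ribosomal proteins, belong to the TOP class: they begin with a cytosine followed by an unbroken run of pyrimidines, through which the mTOR kinase and the cap-binding protein LARP1 set their translation. TPT1 (TCTP, a growth-related protein), PABPC1 (the cytoplasmic poly(A)-binding protein), RACK1 (a scaffold on the small ribosomal subunit), NPM1 (a nucleolar chaperone) and NAP1L1 (a histone chaperone) are further genes of this class. In RNA BS-Seq a cytosine that stays unconverted is counted as m5C, and the methylation ratio of a site is its unconverted counts over all of its counts.

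The pyrimidine run at the transcript start is the feature that names the class. The first 20 bases of the canonical transcripts of 8 of the genes are given 5′ to 3′ from GRCh37, with the unbroken run of C and T from the first base in capitals. The start sequences of EEF1D and PABPC1 were not examined here.
EEF1A1, chr6:74230736-74230755, minus strand: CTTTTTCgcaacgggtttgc
EEF1B2, chr2:207024619-207024638, plus strand: CCTTTTTCCTCTCTTCagcg
EEF2, chr19:3985442-3985461, minus strand: CTCTTCCgccgtcgtcgccg
TPT1, chr13:45915299-45915318, minus strand: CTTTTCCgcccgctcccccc
RACK1, chr5:180670887-180670906, minus strand: CTCTCTTTCactgcaaggcg
NPM1, chr5:170814853-170814872, plus strand: CTTTCCCTggtgtgattccg
NAP1L1, chr12:76478446-76478465, minus strand: CTTTTTTagcgccatctgct
EEF1G, chr11:62341344-62341363, minus strand: actttgcggcagcgccgaga
The run spans 16 bases in EEF1B2 and 7 to 9 bases in the other 6 genes that begin with C. EEF1G begins with A in this annotation and has no run from its first base. The reads seldom reached these bases: of all 10 genes, only TPT1 in MCF10A had a site with a coverage of at least 10 at the first base, with 1 unconverted count of 10. A further 2 TPT1 sites with that coverage lay just upstream, at chr13:45915319 and chr13:45915322, on other basic transcripts. Which transcript gave the counts at the first base was not tested.

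Stretches with several called sites in TPT1, NPM1, RACK1 and EEF2 are shown next because the results below turn on them. They are followed by single sites of EEF2 and EEF1G that were called in both libraries and by 1 of NPM1 called only in MCF10A, with the cytosines called as m5C in at least 1 library in capitals.
TPT1 5′UTR, chr13:45915273-45915302, minus strand: CCCCtCCCCCCgagCgCCgCtCCggCtgCa
NPM1 5′UTR, chr5:170814903-170814932, plus strand: CttttatCtCCgtCCgCCttCtCtCCtaCc
RACK1 5′UTR to start codon, chr5:180670796-180670824, minus strand: gcgacaCacgctctcgCCgCCgCCatgac
EEF2 coding sequence, chr19:3977818-3977847, minus strand: ggtggCCggcttccagtgggCCaCCaagga
EEF2 coding sequence, chr19:3977292-3977316, minus strand: cggggttttgaaCaggaagCggggc
EEF2 3′UTR, chr19:3976299-3976323, minus strand: taatgggccggtCggggagggggag
EEF1G coding sequence, chr11:62334450-62334474, minus strand: tttgcagagaccCaacctaaaaagg
NPM1, chr5:170818343-170818367, plus strand: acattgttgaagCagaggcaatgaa
In the TPT1 stretch every cytosine was called in at least 1 library, and in the NPM1 5′UTR stretch all but the last. In RACK1, EEF2 and EEF1G the called cytosines stand beside others that were not.

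Kept sites were those with a coverage of at least 10 on same-strand nuclear exons or anywhere on the mitochondrial chromosome. Over all kept sites the background, the share of unconverted counts, stood at 1.99% for MCF10A and 1.81% for MDA-MB-468. On the nuclear sites alone it was 1.94% and 1.77%. The study reports a higher background for both lines and removed sites in predicted structure, which were kept here. The calls were not repeated at that background, so how far calls at low ratios depend on it was not tested. The deposited tables sum to 76098976 and 90960018 counts, and the median coverage was 18 in both. A site was called when Fisher's exact test, one-sided and against this background, gave an FDR, the Benjamini-Hochberg adjusted p over all kept sites, under 0.05. Of the epithelial markers, KRT5, KRT17, KRT8 and KRT18 were covered in both libraries, and CDH1 and EPCAM only in MDA-MB-468, at median coverages of 16 and 23. VIM, a mesenchymal marker, was covered only in MCF10A, at a median of 465. The keratin gene KRT14, the blood cell marker PTPRC and the fibroblast collagen gene COL1A2 had no site with a coverage of 10 in either library, while the other collagen gene, COL1A1, had 267 sites at a median coverage of 14 in MDA-MB-468.

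In the 10 genes 94 of 2941 MCF10A sites (3.20%, interval 2.62% to 3.90%) were called, and 50 of 2878 (1.74%, interval 1.32% to 2.28%) in MDA-MB-468. Over all kept sites the called share of MCF10A was 0.960% and that of MDA-MB-468 was 0.840%. These include the mitochondrial sites, and over the nuclear sites alone the called shares were 0.851% and 0.742%. TPT1 and NPM1 gave 49 of the 94 calls in MCF10A, and TPT1 alone gave 26 of the 50 in MDA-MB-468. Without TPT1 the shares were 2.45% and 0.882%, the latter close to the share of all sites in that library. Lower ratios could be called at deeper coverage: the fewest unconverted counts that passed were 4 at a coverage of 10, 9 at a coverage of 100 and 37 of 1000 in MCF10A. The sites of the 10 genes had a median coverage of 159 for MCF10A, against 62 for MDA-MB-468. Among sites with a coverage of at least 100, 52 of 1653 member sites (3.15%) were called in MCF10A against 1.85% of all such sites, and 29 of 1031 (2.81%) in MDA-MB-468 against 1.82%. Without TPT1 these member shares were 2.63% and 1.73%. The shares of all sites at this coverage include mitochondrial sites as well.

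The summed nonconversion of all 10 genes was 1.65% (interval 1.62% to 1.67%) of 1195371 counts in MCF10A and 1.71% (interval 1.66% to 1.75%) of 360468 counts in MDA-MB-468, both below the background of their library. EEF2 weighed most in these sums, and without it they were 2.17% and 2.14%. NPM1 stood highest in MCF10A at 5.79% (interval 5.26% to 6.36%), and TPT1 highest in MDA-MB-468 at 4.73% (interval 4.40% to 5.08%). EEF1A1 stood lowest in both, at 1.12% (interval 0.57% to 2.19%) of 716 counts and 0.724% (interval 0.46% to 1.13%) of 2624 counts. Its MCF10A interval holds the background of that library. In MDA-MB-468, 2550 of its counts came from 5′UTR exons of transcripts other than the canonical one.

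**Figure D1:**
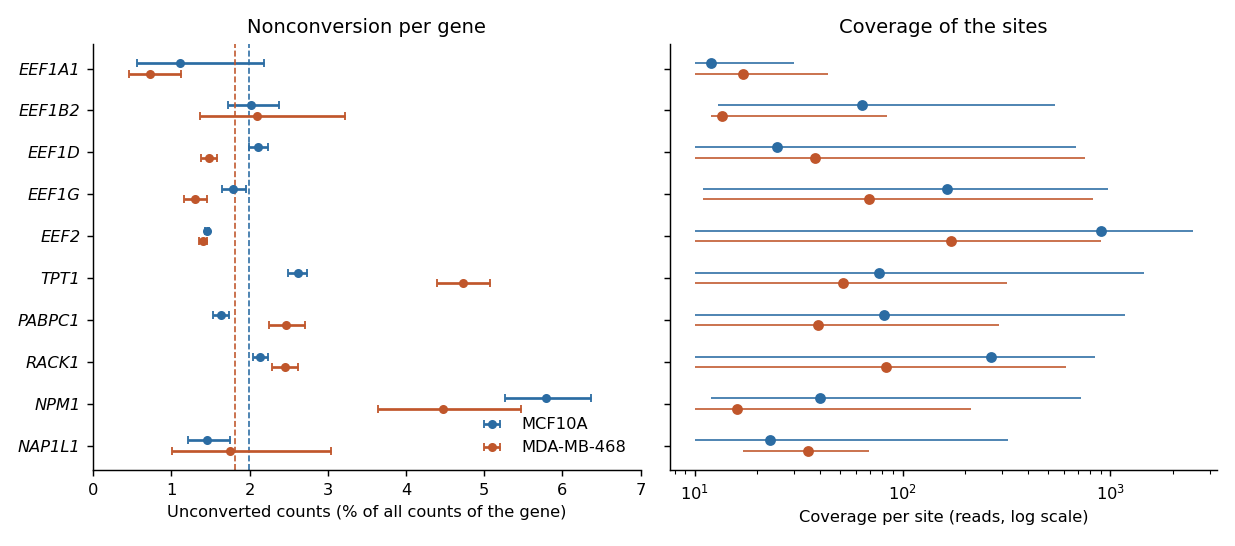
Unconverted counts as a percentage of all counts of each gene (left, points with 95% Wilson intervals, dashed lines the background of each library) and coverage of its sites (right, median with the lowest and highest, log scale), for MCF10A in blue and MDA-MB-468 in orange. TPT1, NPM1 and RACK1 lie to the right of both backgrounds in both libraries, as does EEF1B2 with intervals that hold the background. EEF2 has the deepest sites, at medians of 899.5 and 172.

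EEF1A1, which encodes the most abundant elongation factor, could hardly be measured. Of 675 cytosines of its canonical transcript, 26 reached a coverage of 10 with MCF10A reads and 7 with MDA-MB-468 reads. The median coverage of its sites was 12 and 17. No EEF1A1 site was called, of 51 for MCF10A and 134 for MDA-MB-468. At a coverage of 12, 4 unconverted counts (33.3%) were needed for a call in each library, so lower ratios were not detectable there. In MDA-MB-468, 127 of the 134 sites lay on 5′UTR exons of other basic transcripts, between chr6:74230013-74230534, as did 25 of the 51 in MCF10A.

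EEF1A1 and NPM1 each have 49 annotated pseudogenes. With every C written as T, 51.3% of the 50-nt windows of the EEF1A1 transcript occurred elsewhere in the genome, as did 83.1% for EEF1B2, 82.5% for NPM1 and 78.7% for EEF1G. No such window was found for EEF2, of whose 948 cytosines 99.2% were covered by MCF10A reads and 97.3% by MDA-MB-468 reads. NAP1L1 and TPT1 had few repeated windows (10.7% and 7.80%), yet 7.36% and 23.99% of their cytosines were covered in MCF10A, on canonical transcripts of 13159 and 4548 nt. The read length of the libraries was not given in the sources used here, so the window length is a choice made here, and the part of such copies in the coverage was not tested. Annotated EEF1A1 pseudogenes carried 117 sites with a coverage of at least 10 in MCF10A and none in MDA-MB-468.

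**Figure D2:**
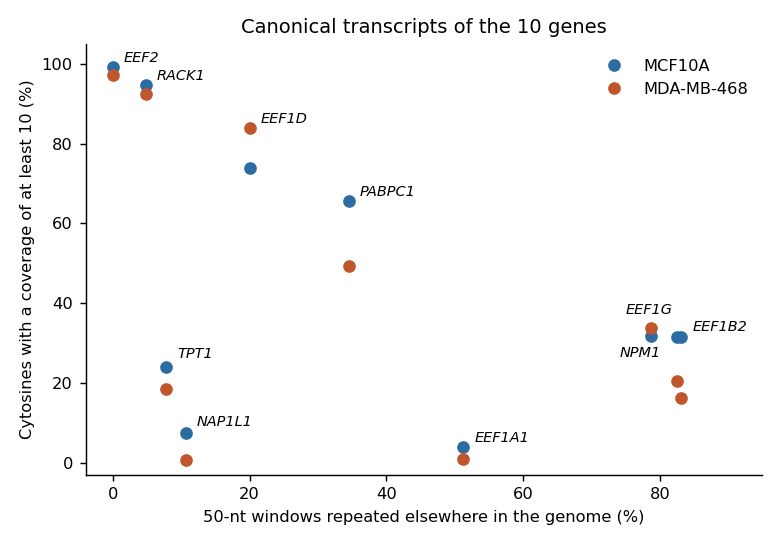
Share of cytosines of each canonical transcript with a coverage of at least 10 (vertical axis, %) against the share of its 50-nt windows whose converted sequence occurs elsewhere in the genome (horizontal axis, %), with MCF10A in blue and MDA-MB-468 in orange. EEF2 and RACK1 sit at the upper left with over 90% of cytosines covered, and EEF1A1 lies near 0 at 51.3% repeated windows.

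Within the eEF1B complex the 3 subunits gave different numbers of calls. EEF1B2, the nucleotide exchange subunit, had 54 sites in MCF10A at a median coverage of 64 and 28 sites in MDA-MB-468 at 13.5, and none was called. Its summed nonconversion was 2.02% (interval 1.72% to 2.37%) and 2.10% (interval 1.36% to 3.22%), intervals that hold the background of the library. EEF1G, the structural subunit of the complex, had 2 calls among 124 MCF10A sites and 1 among 131 MDA-MB-468 sites.

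The EEF1G site at chr11:62334462-62334462 on the minus strand, the first base of a codon, was called in both libraries. It had 42 unconverted of 916 counts in MCF10A (4.59%, interval 3.41% to 6.14%) against 20 of 446 in MDA-MB-468 (4.48%, interval 2.92% to 6.82%), with adjusted p-values of 1.75e-04 and 0.0305 by Fisher's exact test. The 2 ratios differed by -0.10 percentage points (interval -2.31 to 2.52). The 5 other sites within 10 nt lay between 1.34% and 3.40% in MCF10A, all below it. A second EEF1G site, at chr11:62327184-62327184, was called in MCF10A with 18 of 256 counts (7.03%) and not in MDA-MB-468 with 8 of 199 (4.02%), but the interval of that difference (-7.30 to 1.48 percentage points) includes 0. Every EEF1G site also lies on exons of another annotated gene that overlaps it on the same strand, so the counts cannot be told apart between the genes.

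EEF1D, the second exchange subunit, lies on chromosome 8 and was covered at 566 cytosines by MCF10A reads and at 758 by MDA-MB-468 reads. Its 10 calls in MCF10A and 7 in MDA-MB-468 were all in the coding sequence, and all 7 were among the 10. They fall in 2 short runs and 1 lone site. The first run covers 5 cytosines at chr8:144663475-144663482 with ratios of 9.48% to 15.04% in MCF10A, of which 3 were called in MDA-MB-468 at 7.56% to 10.2%. In the second run, chr8:144663283-144663292, all 4 cytosines were called in both libraries, at 6.94% to 12.1% and at 8.49% to 13.8%.

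The ratios beside these runs were lower. The 8 sites within 10 nt of the first run lay between 0% and 3.23% in MCF10A, and the 6 around the second between 1.09% and 2.17%. All 9 cytosines of the runs were predicted to be paired when the transcript was folded at 70 degrees, the setting of the study's structure filter, while 21.8% of all cytosines of the transcript were. The strongest EEF1D site in MCF10A (the call with the highest lower bound of its interval), chr8:144663478-144663478, had 37 unconverted of 246 counts there (15.04%, interval 11.1% to 20.04%) and 12 of 118 (10.2%, interval 5.91% to 16.9%) in MDA-MB-468. In MDA-MB-468 the strongest was chr8:144663284-144663284, with 16 of 116 counts (13.8%) against 37 of 330 (11.2%) in MCF10A. The intervals of the difference between the libraries both include 0, at -11.4 to 2.95 and -3.83 to 10.6 percentage points. The lone site, at chr8:144662747-144662747, had 15 of 266 counts in MCF10A (5.64%) against 5 of 282 in MDA-MB-468 (1.77%).

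EEF2, the translocase, was the most deeply read of the genes, with 940 sites in MCF10A at coverages up to 2486 and 922 in MDA-MB-468 at up to 900. In MCF10A 20 of its sites were called and in MDA-MB-468 10, and 9 were shared. No EEF2 site in the 5′UTR was called. In MDA-MB-468 the 5′UTR sites had coverages of 14 to 26, with 55 of 465 counts unconverted in sum (11.8%, interval 9.20% to 15.1%). At a coverage of 20 a call needed 4 unconverted counts there, so lower ratios were not detectable. The called ratios of EEF2 were low, from 3.63% to 13.3% in MCF10A and from 4.73% to 18.4% in MDA-MB-468. The summed nonconversion of EEF2 was 1.46% and 1.40%, below the background.

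Of the shared EEF2 sites 6 lie in 2 close groups of the coding sequence, chr19:3977823-3977827 and chr19:3977841-3977842, printed above as CCaCC and CC in the same 30 bases. The 4 cytosines of the former had 7.38% to 8.93% in MCF10A and 4.73% to 7.49% in MDA-MB-468. The pair of the latter had 119 of 1638 and 152 of 1648 counts unconverted in MCF10A (7.26% and 9.22%), and 30 of 592 and 44 of 600 in MDA-MB-468 (5.07% and 7.33%). The site at 3977842 had the highest lower bound of its interval among the EEF2 calls in MCF10A, with an adjusted p of 5.48e-50 by Fisher's exact test, and its ratio differed by -1.89 percentage points between the libraries (interval -4.25 to 0.81). The sites between and around these groups lay at 0.46% to 1.31% in MCF10A. Of the 6, 4 were predicted to be paired.

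A further 3 EEF2 sites were called in both libraries. The site at chr19:3977304-3977304, the third base of a codon, had 99 of 1347 counts (7.35%) in MCF10A against 26 of 393 (6.62%) in MDA-MB-468, and was predicted unpaired. Its neighbour at chr19:3977297-3977297 was called only in MDA-MB-468, with 20 of 388 counts (5.15%) against 34 of 1413 (2.41%) in MCF10A. In the 3′UTR, chr19:3976156-3976156 had 114 of 1532 counts (7.44%) and 36 of 738 (4.88%), a difference of -2.56 percentage points (interval -4.51 to -0.39) that did not pass after adjustment over all shared sites (adjusted p = 1 by Fisher's exact test).

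The highest ratio among the EEF2 calls in both libraries belonged to chr19:3976311-3976311, also in the 3′UTR. It had 10 unconverted of 75 counts in MCF10A (13.3%, interval 7.41% to 22.8%) against 7 of 38 in MDA-MB-468 (18.4%, interval 9.22% to 33.4%). The 2 sites within 10 nt of it had 3.08% and 9.23% in MCF10A. This site and 3977297 begin the letters CNGGG, the context known for the methyltransferase NSUN2. Over the members 1 of 53 MCF10A sites of that context was called and 2 of 61 MDA-MB-468 sites. The letters CTCCA, known for NSUN6, began at 13 and 14 member sites, of which 2 and 1 were called, in EEF1D and PABPC1. The transcript strand alone was searched.

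PABPC1, the poly(A)-binding protein gene, also on chromosome 8, had 3 calls among 456 MCF10A sites and 5 among 370 MDA-MB-468 sites, none of them shared. Of its 2 coding calls in MCF10A, the deeper one, at chr8:101733698-101733698, had 31 unconverted of 299 counts (10.4%). In MDA-MB-468 that site had 5 of 105 (4.76%) and was not called. The 9 sites within 10 nt of it lay between 0.35% and 2.35% in MCF10A. The other coding call, at chr8:101719200-101719200, rested on 5 of 21 counts (23.8%) in MCF10A. In MDA-MB-468 it was under the coverage minimum. The site with the highest lower bound in MCF10A, chr8:101715522-101715522 in the 3′UTR, rested on 5 of 18 counts (27.8%, interval 12.5% to 50.9%). The 5 calls of MDA-MB-468 form 1 run in the 5′UTR, chr8:101733883-101733891, with 6 or 7 unconverted of 49 to 55 counts. In MCF10A the same 5 cytosines had 1 unconverted count at 4 of them and 4 at the other, of 52 to 64. At the strongest of them, chr8:101733883-101733883, the libraries differed by 11.4 percentage points (interval 1.99 to 22.9), which did not pass after adjustment over all shared sites (adjusted p = 1 by Fisher's exact test).

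TPT1 had the most called sites in both libraries, 27 of 203 with MCF10A reads and 26 of 156 with MDA-MB-468 reads, and 19 sites were called in both. Of the calls, 22 and 25 formed 1 unbroken run near the transcript start, at chr13:45915267-45915302 in MCF10A and chr13:45915249-45915299 in MDA-MB-468, or 17 to 52 nt and 20 to 70 nt from the first base. Every cytosine with a coverage of at least 10 inside the runs was called. None of the run was predicted to be paired.

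Along this stretch the unconverted counts and the coverage behaved differently. In MCF10A the unconverted counts stayed between 24 and 38 at the 18 sites from 31 to 70 nt, while all counts fell from 1258 at 70 nt to 77 at 31 nt. Over these sites the ratio was therefore higher toward the start, going from 3.02% at 70 nt to 31.2% at 31 nt. In MDA-MB-468 the unconverted counts of the same 18 sites stayed between 14 and 20, and all counts fell from 251 to 27, and the ratio went from 5.98% to 51.9%. The strongest site, chr13:45915293-45915293 at 26 nt, had 23 of 34 counts in MCF10A (67.6%, interval 50.8% to 80.9%) against 17 of 19 in MDA-MB-468 (89.5%, interval 68.6% to 97.1%). Closer to the start the MCF10A ratios were lower, with 5 of 14 counts (35.7%) at 17 nt and 1 of 10 at the first base. MDA-MB-468 had 10 of 11 counts (90.9%) at 20 nt, its first site with a coverage of 10. Whether the same reads gave the unconverted counts from site to site is not in the deposited counts, and the part of coverage in these ratios was not tested.

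**Figure D3:**
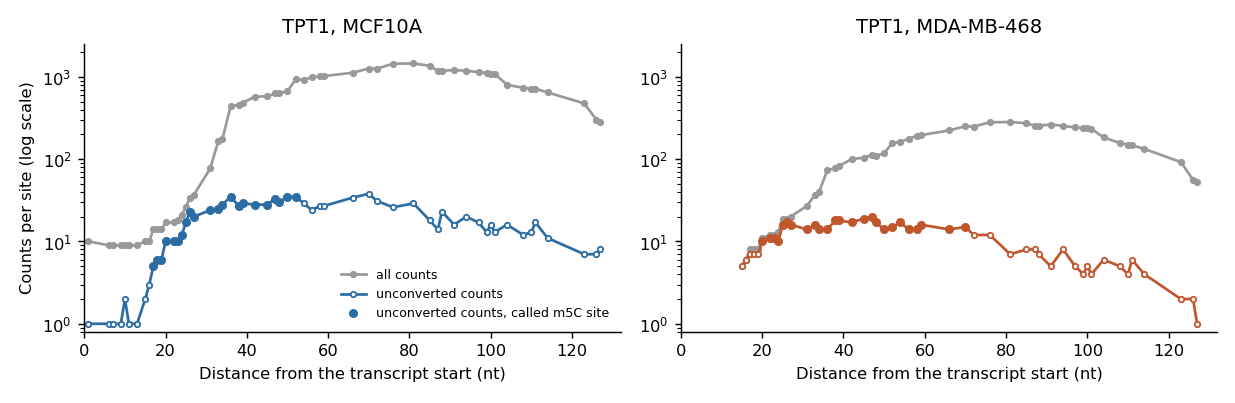
All counts (grey) and unconverted counts (coloured, filled where the site was called) of each TPT1 cytosine against its distance from the transcript start in nt, with counts on a log scale, for MCF10A (left) and MDA-MB-468 (right). The coloured line is flat between 31 and 70 nt while the grey line drops toward it near the start. Nearer the start than 26 nt the unconverted counts drop as well in both libraries. Sites with no unconverted count are left off the coloured line.

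Outside the run, TPT1 had 5 called sites in the 3′UTR in MCF10A, each with 5 unconverted of 22 to 30 counts, and 1 in the coding sequence in MDA-MB-468, chr13:45914236-45914236, with 9 of 98 counts. Of the 17 sites from 71 to 120 nt none was called in either library, with ratios of 1.17% to 2.47% in MCF10A and 1.67% to 4.84% in MDA-MB-468.

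NPM1 had a run of calls at its 5′ end too, in MCF10A. There 21 cytosines in a row were called at chr5:170814874-170814931, from 22 to 79 nt, with 4 to 14 unconverted of 14 to 76 counts. In MDA-MB-468 the 13 sites from 51 to 79 nt had 2 or 3 unconverted of 14 to 22 counts, ratios of 12.5% to 17.6% that lie in the range of the MCF10A ratios for the same sites (12% to 20.3%), and none was called. At 20 counts a call needed 4 unconverted counts in that library, so these ratios could not be called at this depth, and no NPM1 site differed between the libraries by Fisher's exact test. The strongest of these sites, chr5:170814878-170814878, had 8 of 23 counts (34.8%, interval 18.8% to 55.1%) in MCF10A against 1 of 7 in MDA-MB-468, under the coverage minimum.

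The other NPM1 call in MCF10A stood alone, at chr5:170818355-170818355, with 29 of 724 counts (4.01%) against 3 of 213 (1.41%) in MDA-MB-468. It counts as 5′UTR here because at least 1 basic transcript places it there, while in the canonical transcript it is the second base of a codon.

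RACK1, the scaffold on the small ribosomal subunit, had 10 calls in MCF10A, all in the 5′UTR, and 1 in MDA-MB-468. Of the 10, 6 are the CCgCCgCC that ends just before the start codon, printed above with the atg after it. There 32 to 52 of 320 to 385 counts were unconverted in MCF10A, 10% to 13.5%. The 6 sites from 107 to 130 nt, within the coding sequence, had 0.65% to 2.41%, and none was called. Upstream, the 17 sites from 60 to 98 nt had 1.29% to 7.35%, with 1 called. In MDA-MB-468 the 6 cytosines of the CCgCCgCC had 4 to 7 of 37 to 47 counts, 10% to 14.9%. The 17 upstream sites had 0% to 11.1% in that library. Only the last base before the start codon, chr5:180670801-180670801, was called there, with 7 of 47 counts (14.9%, interval 7.41% to 27.7%) against 52 of 385 (13.5%, interval 10.5% to 17.3%) in MCF10A. The 6 were predicted to be paired. The remaining call, at 89 nt, had 15 of 204 counts in MCF10A (7.35%) against 2 of 26 in MDA-MB-468.

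A further 3 RACK1 calls of MCF10A lie at chr5:180670882-180670888, 19 to 25 nt from the start, where 5 of 13, 17 of 69 and 24 of 175 counts were unconverted. Over these 3 sites the ratio rose toward the start, from 13.7% to 38.5%, and all 3 were predicted to be paired. Between these sites and 59 nt no site was called, at ratios of 1.60% to 2.25%.

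NAP1L1, the histone chaperone gene, had 171 sites in MCF10A at a median coverage of 23 and 17 in MDA-MB-468, and none was called. Its 13 sites from 29 to 50 nt in MCF10A had 1 or 2 unconverted of 10 to 20 counts, 5.26% to 10%.

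Many of the calls lay at the 5′ ends of the transcripts. In MCF10A 32 of the 80 member sites in the first 50 nt of the canonical transcript were called (40%) and 17 of 132 in the next 50 nt (12.9%). From 201 nt on 41 of 2412 were called (1.70%). In MDA-MB-468 the first 50 nt gave 18 of 36 and the next 50 nt 7 of 89, all of them in TPT1. For comparison, the first 50 nt of all protein-coding canonical transcripts gave 2.07% called of 23596 MCF10A sites and 2.45% of 13654 MDA-MB-468 sites. Without TPT1 the members gave 11 of 56 MCF10A sites (19.6%) and 0 of 18 MDA-MB-468 sites. The 11 were 8 of 10 NPM1 sites and 3 of 5 RACK1 sites, each in a run. EEF1B2, EEF2, PABPC1 and NAP1L1 had covered sites there in MCF10A and no call. Depth was not matched: the median coverage of these sites without TPT1 was 28 and 14, against 18 and 16 for all transcripts.

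Not every covered 5′ end looked alike. EEF2 in MCF10A had 0 to 4 unconverted of 80 to 189 counts at its 18 sites from 51 to 100 nt, 0.95% in sum, and EEF1B2 had 1 to 4 of 30 to 93 at its 18 sites, 3.22% in sum. In MDA-MB-468 the same EEF2 sites had 1 to 4 unconverted of 12 to 26 counts, 11.8% in sum, and none was called. The first covered cytosine of EEF2 at a coverage of 10 lay at 16 nt in MCF10A and at 33 nt in MDA-MB-468. EEF1A1, EEF1D and EEF1G had no covered site in the first 50 nt of the canonical transcript in either library. EEF1D had 85 MCF10A and 213 MDA-MB-468 sites on other basic transcripts only, and distances from the starts of those were not examined.

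**Figure D4:**
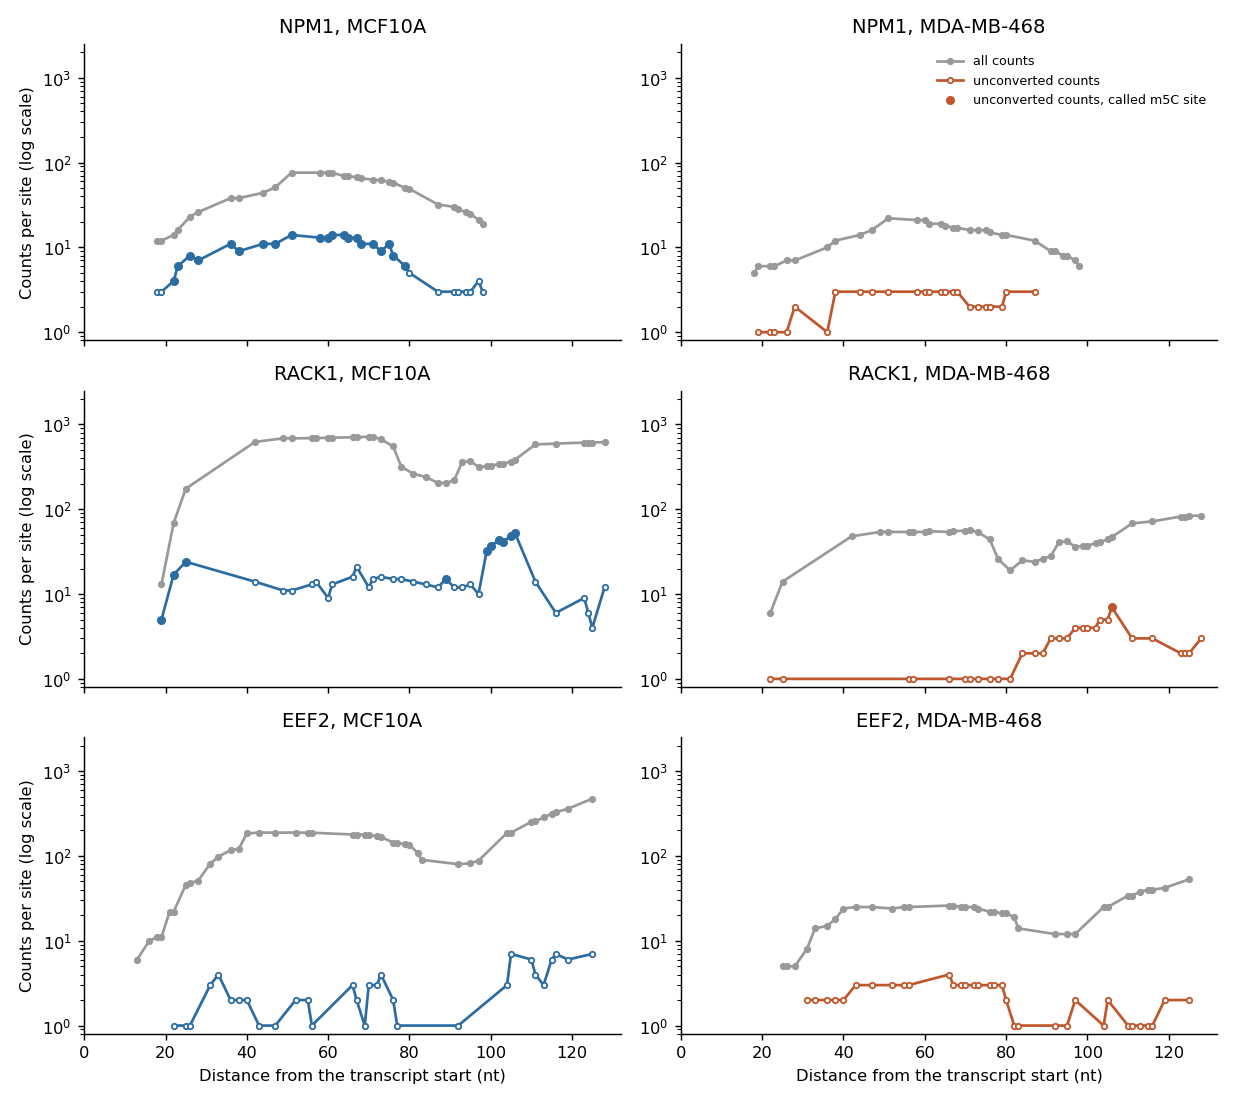
All counts (grey) and unconverted counts (coloured, filled where called) of each cytosine against the distance from the transcript start in nt for NPM1, RACK1 and EEF2, with counts on a log scale, for MCF10A (left) and MDA-MB-468 (right). NPM1 has filled points from 22 to 79 nt in MCF10A only, and EEF2 stays at 7 unconverted counts or fewer. At 99 to 106 nt RACK1 has 32 to 52 unconverted of 320 to 385 counts in MCF10A (10% to 13.5%). In MDA-MB-468 it has 4 to 7 of 37 to 47 there (10% to 14.9%). Sites with no unconverted count are left off the coloured line.

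By region, 54 of the 94 calls in MCF10A lay in the 5′UTR (57.4%, interval 47.4% to 67.0%), where 18.3% of the member sites were, and 31 of the 50 in MDA-MB-468 (62.0%, interval 48.2% to 74.1%), with 23.2% of the sites. The coding sequence held 32 and 17 calls and the 3′UTR 8 and 2. Without TPT1 the 5′UTR held 47.8% of the MCF10A calls and 25% of the MDA-MB-468 calls. Those of MCF10A were 22 in NPM1 and 10 in RACK1, and those of MDA-MB-468 were 5 in PABPC1 and 1 in RACK1. By codon position 1.31%, 1.66% and 1.58% of sites were called at positions 1, 2 and 3 in MCF10A.

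Most called sites had a called neighbour. In MCF10A 75 of 94 (79.8%) and in MDA-MB-468 45 of 50 (90.0%) belonged to a run in which the next call lay within 10 nt, 10 runs and 7 runs in all. The lone calls numbered 19 and 5. Neighbouring cytosines share reads, so the sites of a run are not independent observations.

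Sites predicted to be paired were called more often in both libraries. Of 273 sites predicted to be paired on a canonical transcript, 25 (9.16%, interval 6.28% to 13.2%) were called in MCF10A, against 69 of 2544 (2.71%, interval 2.15% to 3.42%) predicted unpaired. In MDA-MB-468 it was 13 of 264 (4.92%) against 37 of 2226 (1.66%). The paired calls came from EEF1D, EEF2 and RACK1, and the 5′ runs of TPT1 and NPM1 held none. Most of the paired calls lay in a few short runs whose sites share reads, largely the same runs in both libraries. The intervals take the sites as independent and so are too narrow. The part of structure in these calls was not tested.

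Between the libraries, 37 member sites were called in both, 39.4% of the calls of MCF10A and 74.0% of those of MDA-MB-468. Of the other MCF10A calls, 16 were under the coverage minimum in MDA-MB-468. For the remaining 41 the MCF10A ratio lay inside the MDA-MB-468 interval at 40, at a median coverage of 37 there. The 13 calls of MDA-MB-468 alone were all covered in MCF10A, and at 1 of them the ratio lay inside the MCF10A interval. Across the 1493 sites with a coverage of at least 50 in both, the ratios of the libraries correlated with Pearson's r = 0.51 and Spearman's rho = 0.37, a description over sites that share reads and sequence.

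Of the 2505 shared member sites 4 (0.160%) differed between the libraries by a two-sided Fisher's exact test, adjusted over all 812729 shared sites, of which 0.0893% did. All 4 were higher in MDA-MB-468, as were 0.0202% of all shared sites. They lie in the TPT1 run at 38 to 47 nt, within chr13:45915272-45915281, and so count as 1 stretch. The largest difference was at 45915281, where 27 of 457 counts (5.91%) were unconverted in MCF10A against 18 of 78 (23.1%) in MDA-MB-468. This is a difference of 17.2 percentage points (interval 8.82 to 27.8) with an adjusted p of 0.0133. At 45915280 the ratios were 5.99% and 21.7% (adjusted p = 0.0283 by the exact test), at 45915274 they were 4.85% and 18.3% (adjusted p = 0.0159 by the exact test), and at 45915272 they were 5.26% and 17.9% (adjusted p = 0.0277 by the exact test). The unconverted counts at these sites were 27 to 33 for MCF10A and 18 to 20 for MDA-MB-468. The coverage was 457 to 627 against 78 to 112. All 19 TPT1 sites called in both libraries had the higher ratio in MDA-MB-468. At an unadjusted p under 0.05, 136 member sites (5.43%) differed, 104 of them higher in MDA-MB-468, and 72 of the 136 were in EEF2, the most deeply read gene. Of all shared sites 1.14% did, but the 2 shares are not at matched depth, since the member sites had median coverages of 159 and 62 and all kept sites 18, and nothing is read from their difference.

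**Figure D5:**
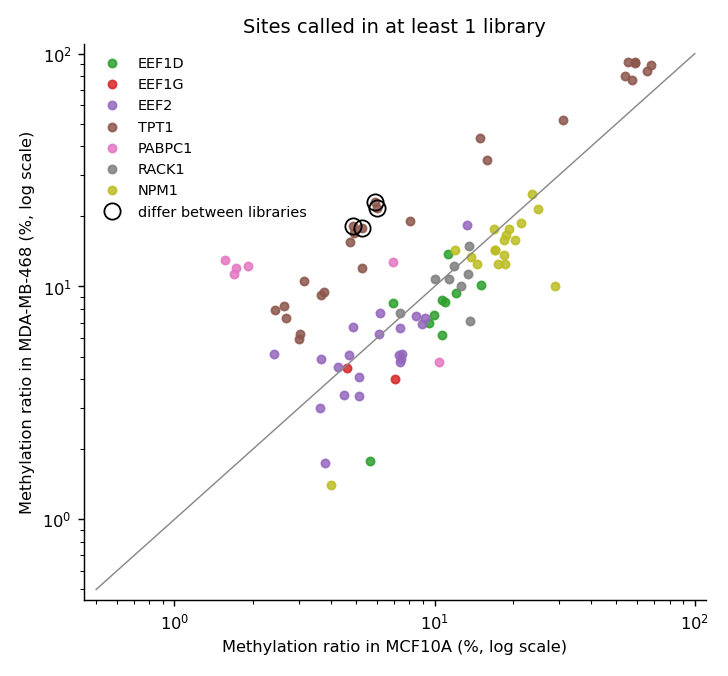
Methylation ratio in MDA-MB-468 against that in MCF10A (both in %, log scales) for the 91 of 107 sites called in at least 1 library that have a coverage of at least 10 in both, coloured by gene, with the line of equal ratios. The TPT1 sites lie above the line, and black circles mark the 4 that differed between the libraries.

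Other genes of the pathway were examined for the same measures. Of 12 further elongation and termination genes, 10 had covered sites in each library, and 14 of 1462 MCF10A sites (0.958%) were called and 1 of 1138 MDA-MB-468 sites (0.0879%). GSPT1, which encodes the release factor eRF3a, had the most, 9 of 298 in MCF10A. Of 12 other genes with TOP mRNAs, all had covered sites with MCF10A reads, 11 with MDA-MB-468 reads. There 17 of 2620 MCF10A sites (0.649%) were called and 0 of 1248 MDA-MB-468 sites. For the latter the approximate upper limit of the share is 0.240%, which is not a Wilson bound and takes the sites as independent. PABPC4, a paralogue of PABPC1, had 13 of the 17. In MCF10A 0.960% and in MDA-MB-468 0.840% of all kept sites were called, and of the nuclear ones 0.851% and 0.742%. Depth was not matched to the 10 genes, whose sites had median coverages of 159 and 62. In MCF10A the gene medians ran from 10 to 57 in the former list and from 19 to 465 in the latter. In MDA-MB-468 they ran from 11 to 35 and from 12.5 to 415. Nothing is read from the difference between these shares and those of the 10 genes.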

How the data were processed

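RNA BS-Seq was analysed in 1 library each of MCF10A and MDA-MB-468. The deposited tables hold, for each cytosine, the counts of unconverted (m5C) and converted reads, which the authors made after trimming with Trim Galore, alignment to hg19 with MeRanGs and calling with MeRanCall. The labels' processing notes name Bismark as well. The tables start at a coverage of 5, and their counts sum to 76098976 and 90960018.

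Sites with a coverage of at least 10 were kept if they lay on a same-strand exon of a nuclear chromosome or anywhere on the mitochondrial chromosome. Each was set against the summed counts of all kept sites of its library by Fisher's exact test (one-sided), and libraries were compared by the same test (two-sided), with Benjamini-Hochberg adjustment over all sites tested and a threshold of 0.05. With 1 library a line these tests cover the reads of these libraries. Exons came from GENCODE release 44 basic transcripts on GRCh37. A site on several regions was given to the 5′UTR first, then the coding sequence, then the 3′UTR. Canonical transcripts were folded with ViennaRNA 2.7.2 (MEA, gamma 0.1, 70 degrees, pairing distance up to 150 nt, and transcripts over 8000 nt in windows of 2000 nt with a step of 1000 nt). Python 3.11.15, numpy 2.4.6, scipy 1.17.1, pandas 2.3.3, pysam 0.24.0 and matplotlib 3.10.9 were used, and the site test was tested on simulated data.

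The genes, lists and rules were chosen with earlier results of these data known. Named were, for each gene and library, the called site with the highest lower bound of its 95% Wilson interval, the sites with the largest differences among those that differed, and the 5 sites called in both libraries with the highest coverage. Other sites were named, and the distance ranges at the 5′ ends were chosen, after their values were seen. Alternatives covered the coverage minimum, the background, the test, a minimum ratio, transcripts, overlapping genes and structure.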

Additional observations from a re-analysis of the deposited data

How the results depend on the processing

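Requiring a methylation ratio of at least 0.2 left 25 of the MCF10A calls and 12 of the MDA-MB-468 calls, of which 88.0% and 100% lay in the 5′UTR. With sites predicted to be paired left out, the summed nonconversion in MCF10A was 1.57% and the 5′UTR share in MDA-MB-468 was 81.1%. With a coverage of at least 20 the summed nonconversion in MDA-MB-468 was 1.66%. The settings without TPT1 and without EEF2 were chosen after seeing the data. Without TPT1, MDA-MB-468 kept 24 called sites, with a 5′UTR share of 25%. Without EEF2 the summed nonconversion was 2.17% for MCF10A and 2.14% for MDA-MB-468. The other 41 values stayed within 1.5 times the main count or within the main interval. Among them, the sites that differed between the libraries numbered 4 or 5, where 5 came from testing against the ratio of the background odds. No paired analysis was possible because each line has 1 library, and leaving out a replicate was not possible for the same reason. Depth limits what could be called: at a coverage of 20 a call needed 5 unconverted counts for MCF10A and 4 for MDA-MB-468, so that ratios below 25% and 20% were not detectable there.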
